A study of Homo sapiens with 9 samples.

Results

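The genes described are 10 chemokines and inflammatory cytokines (CXCL1, CXCL2, CXCL3, CXCL5, CXCL8, CCL2, CCL20, IL6, IL11 and LIF), chosen by name among the 60642 gene names of the count table, and all 10 were listed there. RNA-seq was performed on SNU-398, a hepatocellular carcinoma cell line, in 3 groups of 3 libraries: vector control, EMX1-FL and EMX1-X1. All cells went through lentiviral transduction and puromycin selection in serum-containing medium, and the labels name no cytokine or other stimulus. EMX1 is a homeodomain transcription factor, EMX1-FL is its full-length form, and EMX1-X1 is a splice isoform with another terminal exon. Both forms were expressed stably in selected cells rather than from the endogenous locus, and the labels number the libraries without saying that they came from separate cultures, so that p-values measure the spread between these libraries, which may be technical.

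CXCL1, CXCL2, CXCL3, CXCL5 and CXCL8 are chemokines that attract neutrophils through the receptors CXCR1 and CXCR2. CCL2 attracts monocytes through CCR2, and CCL20 attracts lymphocytes and dendritic cells through CCR6. IL6, IL11 and LIF signal through the shared receptor chain IL6ST (gp130) to JAK kinases and STAT3. Most of these genes are kept low in unstimulated cells and are induced by IL-1 or TNF through NF-kappaB, often with AP-1 and C/EBP factors, while their mRNAs are short-lived because decay factors bind AU-rich elements or stem-loops in them. In liver cancer such cytokines come from tumor cells, fibroblasts and immune cells. A cultured line shows only what its own cells express when grown without the other cells, not their share in a tumor.

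Each library held 21562703 to 25197970 read pairs assigned to genes. EMX1, the overexpressed gene, was higher in every overexpression library than in every control library. Its log2 fold change over the vector control was 4.04 for EMX1-FL (adjusted p = 0.00121) and 4.50 for EMX1-X1 (adjusted p = 0.00047). A principal component analysis of all genes showed another division that did not follow the groups, along a component with 39.6% of the variance. It set vector control 1 and 2, EMX1-FL 2 and 3 and EMX1-X1 1 (cluster A) apart from vector control 3, EMX1-FL 1 and EMX1-X1 2 and 3 (cluster B). This division was read from the counts and names no condition of the experiment, and differences within each cluster are given beside the results. The level of EMX1 itself moved with it: cluster A and B libraries had means of 9.65 and 12.9 CPM for the control, 139.9 and 251 with EMX1-FL and 145 and 291 with EMX1-X1. Levels are in CPM, counts per 1000000 read pairs with TMM factors, and levels of different genes are compared only in TPM, which accounts for gene length.

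Of the 10 members, the 8 other than CCL2 and LIF were close to silent. CXCL1, CXCL5 and IL6, 30% of the members, had no read pair in any of the 9 libraries. The share over all gene names was 39.7%. A count of 0 allows up to 3 counts, which is between 0.121 and 0.138 CPM in these libraries. CXCL8 and CCL20 had 1 read pair each, in EMX1-FL replicate 1 and vector control replicate 3. The 8 members other than CCL2 and LIF gave 68 of the 211634563 read pairs counted over all libraries. None of these 8 passed edgeR's filter on low counts, which 18574 of all 60642 gene names passed. The main analysis thus made no test for them, and a difference between groups was not detectable at this depth. When every gene with at least 1 read pair was tested, none of the 5 low members with reads was a DEG (a log2 fold change of at least 1 in either direction with an unadjusted p below 0.05, the threshold of the study), and their lowest adjusted p was 0.757, for CXCL8 in EMX1-FL against EMX1-X1. In such bulk samples, fewer cells expressing a gene and less RNA per cell cannot be told apart.

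**Figure D1:**
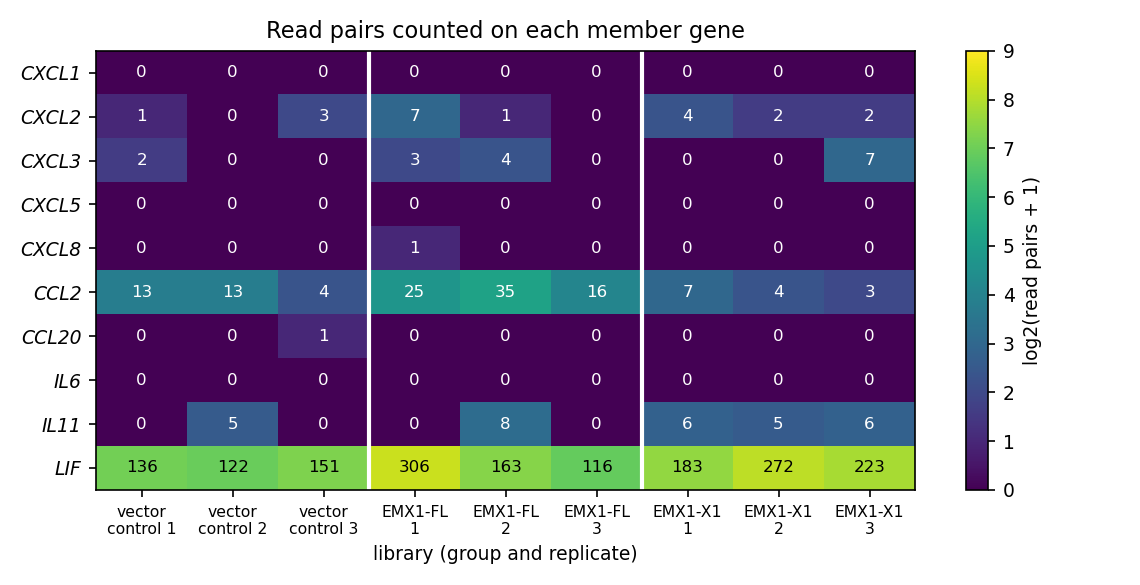
Read pairs counted on each of the 10 members (rows) in each of the 9 libraries (columns, by group and replicate), with the count printed in each cell and its colour giving log2(read pairs + 1). LIF has between 116 and 306 read pairs in every library and CCL2 between 3 and 35, while no other member exceeds 8 in any library.

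CXCL2 had 1, 0 and 3 read pairs in the vector control libraries, 7, 1 and 0 in the EMX1-FL libraries and 4, 2 and 2 in the EMX1-X1 libraries. CXCL3 had 2, 0 and 0, then 3, 4 and 0, then 0, 0 and 7. Both chemokines thus overlapped between all groups, with sums of 20 and 16 read pairs over the 9 libraries. They are close paralogs: of the stretches of 100 bases in their annotated transcripts (GENCODE release 29), 5.00% of those of CXCL2 and 3.27% of those of CXCL3 also occur in the other, while CXCL1 shared none with either. Reads from the shared stretches cannot be assigned to 1 gene. The sum of CXCL1, CXCL2 and CXCL3 did not pass the filter either.

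IL11, a cytokine of the IL-6 family linked to fibrosis and platelet formation, had the most read pairs among these untested genes, with 30 over the 9 libraries. It had 0, 5 and 0 read pairs in the vector control libraries, 0, 8 and 0 in the EMX1-FL libraries and 6, 5 and 6 in the EMX1-X1 libraries. All 3 EMX1-X1 libraries thus held reads, but vector control replicate 2 matched the lowest of them in counts and EMX1-FL replicate 2 exceeded them all. The mean level was 0.233 ± 0.022 CPM (SD, n = 3) with EMX1-X1, 0.112 ± 0.194 (SD, n = 3) with EMX1-FL and 0.073 ± 0.126 (SD, n = 3) for the control. In the test without the filter, IL11 gave an unadjusted p of 0.205 for EMX1-X1 against vector control (adjusted p = 0.777).

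The 5 CXC chemokines lie together on chromosome 4 of GRCh38, with CXCL8 at chr4:73740541-73743716 at one end and CXCL2 at chr4:74097040-74099196 at the other, over 358.7 kb. Between them are CXCL1 (chr4:73869393-73871308), CXCL5 (chr4:73995642-73998677) and CXCL3 (chr4:74036589-74038807). The count table listed 18 genes in this interval, among them the platelet chemokine genes PPBP, PF4 and PF4V1 and the neutrophil chemokine CXCL6. Of the 18 genes, 12 had no read pair in any library, and the whole interval held 42 read pairs. CXCL2 and CXCL3 accounted for 36 of these. The other low members lie apart, with CCL20 at chr2:227805739-227817564, IL6 at chr7:22725884-22732002 and IL11 at chr19:55364382-55370463 (Ensembl release 99).

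Sequence motifs of the known inducers were searched in the promoter sequences of RefSeq (GRCh38.p14, a window of 300 bases around the start of each gene as RefSeq places it), which were matched for 8 of the 10 members. CCL2 and LIF had no entry in the table. On either strand, the kappaB motif, the binding site of NF-kappaB (GGG, a purine, any base, A or T, a pair of pyrimidines, then CC), was present in 6 of the 8 promoters, against 5.91% of the 35116 promoters in the table. Of the remaining motifs, AP-1 (TGANTCA) was found in CXCL8 and IL11 (7.71% of all promoters), the TATA box (TATAAA) in CXCL8 and CCL20 (11.5%), and the homeodomain core TAATTA in none of the 8 (4.84%). The kappaB and AP-1 motifs belong to known regulators of the family, the TATA box is an element of core promoters, and TAATTA was searched because EMX1 carries a homeodomain. Since most members are known to be induced through NF-kappaB, their kappaB share is no separate finding. The matches of the paralogs CXCL1, CXCL2 and CXCL3 are not independent of each other. Whether CXCL8 holds a kappaB match depends on this pattern: with 1 mismatch allowed, an alternative chosen after seeing the exact matches, CXCL8 matched at tggaatttcc from base 92 before its start, which made 7 of the 8 promoters, but 50.2% of all promoters matched then too. A match describes the sequence alone and does not show that a factor bound there. The 6 kappaB matches are shown with 35 bases on either side, 5′ to 3′ on the strand of the gene and with the bases of the motif in capitals, to show how alike this element is in the low members.
CXCL1: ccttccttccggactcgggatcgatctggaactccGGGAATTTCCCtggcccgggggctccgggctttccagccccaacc
CXCL2: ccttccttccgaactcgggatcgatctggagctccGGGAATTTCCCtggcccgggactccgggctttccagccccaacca
CXCL3: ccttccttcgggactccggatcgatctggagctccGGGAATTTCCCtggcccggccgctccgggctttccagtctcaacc
CXCL5: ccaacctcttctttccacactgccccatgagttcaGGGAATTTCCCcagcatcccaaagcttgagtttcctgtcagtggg
CCL20: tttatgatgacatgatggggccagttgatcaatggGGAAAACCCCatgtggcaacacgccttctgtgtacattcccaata
IL6: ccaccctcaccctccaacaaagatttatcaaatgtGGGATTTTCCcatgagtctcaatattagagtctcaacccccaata

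In CXCL1, CXCL2, CXCL3 and CXCL5 the motif read GGGAATTTCC, and because it is nearly a palindrome the opposite strand matched too, shifted by 1 base, so that 11 bases are in capitals. CCL20 held GGGGTTTTCC on the opposite strand and IL6 held GGGATTTTCC. The matches began between 73 (IL6) and 91 (CXCL5) bases before the gene's start. Outside the motif the 3 paralogs were alike as well: the windows of CXCL1 and CXCL3 were identical at 73 of 80 positions and those of CXCL1 and CXCL2 at 64 of 80 with no gap allowed, while CXCL1 and CXCL5 were identical at 34 of 80. The windows are at chr4:73869279-73869358 (CXCL1, plus strand), chr4:74099229-74099308 (CXCL2, minus), chr4:74038724-74038803 (CXCL3, minus), chr4:73998724-73998803 (CXCL5, minus), chr2:227813728-227813807 (CCL20, plus) and chr7:22727092-22727171 (IL6, plus). Of the exon bases of CXCL5 and IL6, both at 0, 17.3% and 20.7% are shared with genes on the opposite strand, and featureCounts, the program named in the header of the count table, by default does not count a pair that overlaps 2 genes.

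CCL2, the monocyte chemoattractant, was the only chemokine of the panel with read pairs in every library. Its gene lies at chr17:34255218-34257203. EMX1-FL cells had the highest level, followed by the vector control and EMX1-X1 cells. The 3 EMX1-FL libraries held 25, 35 and 16 read pairs, the vector control libraries 13, 13 and 4, and the EMX1-X1 libraries 7, 4 and 3. In CPM these are 1.11, 1.47 and 0.738, then 0.556, 0.567 and 0.165, then 0.291, 0.166 and 0.121. All EMX1-FL libraries were thus above all others, while the vector control and EMX1-X1 libraries overlapped. The lowest EMX1-FL library was at 0.738 CPM and the highest of the other 6 at 0.567.

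The mean of CCL2 was 1.11 ± 0.367 CPM (SD, n = 3) with EMX1-FL, 0.429 ± 0.229 (SD, n = 3) for the control and 0.193 ± 0.088 (SD, n = 3) with EMX1-X1. Beside the DEG threshold, an adjusted p (quasi-likelihood test of edgeR, Benjamini-Hochberg method over 18574 genes) is given. EMX1-FL cells had a log2 fold change of 1.36 over the vector control (standard error 0.556, 95% interval 0.149 to 2.58, unadjusted p of 0.0309, adjusted p = 0.795). CCL2 was a DEG in this comparison, as were 2.42% of all genes tested, but it did not pass the adjusted threshold, which 0.07% passed. The groups did not overlap, as was so for 10.5% of the genes tested (exact permutation test, two-sided, p = 0.1, which is the lowest value possible with 3 libraries against 3). CCL2 entered the test through EMX1-FL, the higher group here. The call and the separation are therefore no separate evidence of a difference.

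The call was lost without any 1 of 3 libraries. Without EMX1-FL replicate 2 the log2 fold change was 1.08 (unadjusted p of 0.123), without vector control replicate 3 it was 0.961 (unadjusted p of 0.0985), and without EMX1-FL replicate 1 it was 1.36 with an unadjusted p of 0.0508. With limma on log2(TPM + 1), a scale that shrinks the change of low genes, it was 0.81, under the fold change threshold. Within cluster A the log2 difference was 0.81 with 2 libraries on each side, and within cluster B it was 2.26 with 1 on each side. With the cluster as a covariate the fold change was 1.47 on the log2 scale (unadjusted p of 0.0167, adjusted p = 0.214).

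Comparing the 2 forms with each other, CCL2 was higher with EMX1-FL by a log2 fold change of 2.49 (standard error 0.605, 95% interval 1.17 to 3.82), which is 5.64-fold, with an unadjusted p of 0.00147 (adjusted p = 0.611). CCL2 ranked 17 by p among the genes tested, but it entered the test through EMX1-FL, the group in which it was highest. The rank is therefore no separate evidence of a difference. CCL2 was a DEG here, as were 1.42% of the genes, and its groups did not overlap, as was so for 8.39% (two-sided exact permutation test, p = 0.1). With edgeR 0% of the genes passed the adjusted threshold, though 1418 had an unadjusted p below 0.05, and DESeq2 gave 1693 and 1 gene past the adjusted threshold, which was not CCL2. CCL2 was a DEG in this comparison under all 19 alternatives that could be computed for it, with log2 fold changes of 1.16 to 2.91 and adjusted p of 0.0488 (without EMX1-FL replicate 1, the one alternative under 0.05) to 0.991. Within clusters A and B the log2 difference was 1.59 and 2.39, each with 1 library on one side.

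Against the vector control, EMX1-X1 cells had a CCL2 log2 fold change of -1.13 (standard error 0.634, 95% interval -2.52 to 0.252, unadjusted p of 0.0999, adjusted p = 0.652), and CCL2 was no DEG. The groups overlapped (two-sided exact permutation test, p = 0.3), and the log2 difference was -0.78 within cluster A and -0.13 within cluster B. The background was 2.5% for DEGs, 0.00538% for the adjusted threshold and 14.7% for groups that did not overlap. Without vector control replicate 3, the library with 4 read pairs, the log2 fold change was -1.54 with an unadjusted p of 0.0245, which made CCL2 a DEG (adjusted p = 0.613). At least 10 read pairs were counted in 3 EMX1-FL, 2 vector control and 0 EMX1-X1 libraries, so CCL2 entered the test through the group in which it was highest. Even there its level was low, with a mean of 2.08 TPM with EMX1-FL, 0.777 in the vector control and 0.366 with EMX1-X1.

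**Figure D2:**
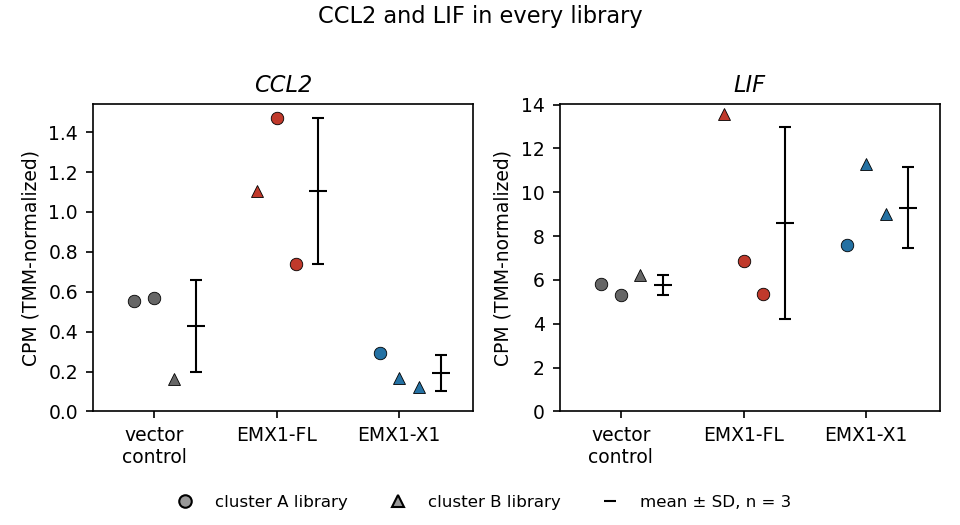
Levels of CCL2 and LIF in CPM (counts per 1000000 read pairs with TMM factors) in each library, by group, with circles for cluster A, triangles for cluster B and the mean ± SD of 3 libraries at the right of each group. All 3 EMX1-FL libraries lie above the others for CCL2, and for LIF EMX1-FL replicate 1 stands at 13.6 CPM against 6.86 and 5.35 in the other EMX1-FL libraries.

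LIF, leukemia inhibitory factor, had the highest level of the panel, with a median of 6.59 TPM over the 9 libraries against 1.02 for CCL2. Its gene lies at chr22:30240453-30246759, and the antisense genes LIF-AS1 and AC004264.1, with at most 15 and 26 read pairs in a library, cover 4.37% of its exon sequence. The vector control libraries held 136, 122 and 151 read pairs (5.82, 5.32 and 6.22 CPM), the EMX1-FL libraries 306, 163 and 116 (13.6, 6.86 and 5.35 CPM) and the EMX1-X1 libraries 183, 272 and 223 (7.61, 11.3 and 8.996 CPM). All EMX1-X1 libraries were above all vector control libraries. The EMX1-FL libraries lay on both sides of the vector control, and 1 of them was the highest of all 9.

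The mean of LIF was 5.78 ± 0.451 CPM (SD, n = 3) for the control, 8.59 ± 4.37 (SD, n = 3) with EMX1-FL and 9.30 ± 1.86 (SD, n = 3) with EMX1-X1. Against the vector control, EMX1-X1 cells had a log2 fold change of 0.68 (standard error 0.316, unadjusted p of 0.0514, adjusted p = 0.612), and the groups did not overlap (two-sided exact permutation test, p = 0.1), as was so for 14.7% of the genes tested. EMX1-FL cells had one of 0.57 (standard error 0.316, unadjusted p of 0.0968, adjusted p = 0.975), and the groups overlapped (exact permutation test, p = 0.3). LIF was a DEG in neither comparison, nor under any of the 20 alternatives. Over these, its unadjusted p for EMX1-X1 against vector control ran from 0.00556 (without EMX1-FL replicate 1) to 0.172 (without EMX1-X1 replicate 2). DESeq2 gave 0.0452, so that 1 of the 2 tested members was below 0.05 there by DESeq2 and 0 by edgeR (9.21% and 8.11% of all genes). Without EMX1-FL replicate 1 the log2 fold change of EMX1-FL over the vector control was 0.079. The overexpression groups differed by -0.11 on the log2 scale (95% interval -0.795 to 0.567, adjusted p = 0.887), and this sign changed under 4 of the 20 alternatives.

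LIF was higher in cluster B than in cluster A libraries within each group, as was EMX1, whose part in this was not tested. EMX1-FL exceeded the control by 0.12 on the log2 scale among cluster A libraries and by 1.11 among cluster B libraries, and EMX1-X1 exceeded it by 0.45 and 0.69. EMX1-X1 libraries were thus above the vector control libraries of their own cluster, with 1 library on one side of each comparison. With the cluster as a covariate the log2 fold change was 0.49 for EMX1-FL cells (unadjusted p of 0.0427, adjusted p = 0.310) and 0.47 for EMX1-X1 cells (unadjusted p of 0.0587, adjusted p = 0.415).

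**Figure D3:**
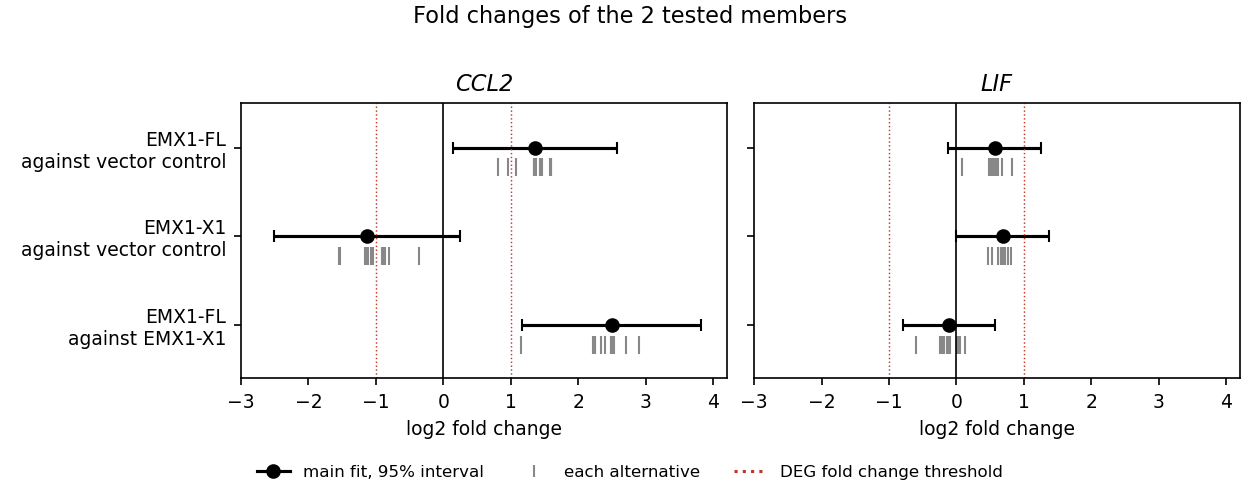
Log2 fold changes of CCL2 and LIF in the 3 comparisons, with points and bars for the value of edgeR's quasi-likelihood fit and its 95% interval, grey marks for each alternative, and dotted lines at the fold change threshold for DEGs. The CCL2 interval of EMX1-FL against EMX1-X1 runs from 1.17 to 3.82, and that of LIF in the same comparison includes 0.

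Among the 9 receptor genes of the panel, the chemokine receptors were near 0 and the IL-6 family receptors were present. CCR2, the receptor of CCL2, had no read pair in any library, CCR6 had 2, CXCR2 8, CXCR1 10 and the decoy receptor ACKR1 59 read pairs over the 9 libraries. The chains used by LIF were well measured, with a median of 27.3 TPM for IL6ST and 7.46 TPM for LIFR, and the alpha chains IL6R and IL11RA were at 2.77 and 2.68 TPM. These 4 were the only receptors tested, and 0 of them were DEGs in any comparison by edgeR or DESeq2. At an unadjusted p below 0.05 edgeR gave 1 of the 4 in EMX1-X1 against vector control, and DESeq2 gave 1 there and 1 in EMX1-FL against EMX1-X1. For these counts and those of the lists that follow, the share over all genes at this threshold was 5.8% by edgeR and 6.74% by DESeq2 in EMX1-FL against vector control, 8.11% and 9.21% in EMX1-X1 against vector control, and 7.63% and 9.12% in EMX1-FL against EMX1-X1. The DESeq2 share of DEGs was 2.68%, 2.69% and 1.6% in these comparisons. Their median log2 fold change was 0.39 with EMX1-FL and 0.28 with EMX1-X1 against the vector control, beside 0.045 and 0.0098 over all genes tested.

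Of 31 other chemokines and cytokines, 6 passed the filter, 8 had no read pair at all and 0 were DEGs. None of the 6 had an unadjusted p below 0.05 by edgeR or DESeq2 in any comparison, and their median log2 fold change was 0.085 with EMX1-FL and -0.025 with EMX1-X1 against the vector control. CXCL16, a membrane-bound chemokine, was highest at a median of 25.8 TPM, followed by CLCF1, a cytokine of the IL-6 family, at 2.97, TSLP at 1.93 and CSF1, the macrophage growth factor, at 1.54. CXCL12 and CTF1 were at 0.942 and 0.861 TPM. MIF had 11 read pairs in all, but other genes cover 94.1% of its exon sequence so that its count is uncertain.

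The inducing cytokines were near 0, and the genes that transmit their signals ranged from near 0 to well expressed. TNF and IL17A had no read pair, IL1B had 3 and IL1A 12 over the 9 libraries. Of 17 inducing cytokines, their receptors and adaptors, 10 were tested and 0 were DEGs by edgeR or DESeq2. At an unadjusted p below 0.05 edgeR and DESeq2 each gave 1 of the 10 in EMX1-FL against vector control (5.8% and 6.74% of all genes), DESeq2 gave a further 1 in EMX1-X1 against vector control where edgeR gave 0, and the median log2 fold change was 0.15 with either form. IL17RC and IL17RA, the chains of the IL-17 receptor, were at 16.1 and 11.96 TPM, the TNF receptor TNFRSF1A at 2.01 and the IL-1 receptor IL1R1 at 1.79. Lower were TNFRSF1B at 0.631 TPM, the adaptor MYD88 at 0.573 and the IL-1 co-receptor IL1RAP at 0.298, while the Toll-like receptors TLR2 and TLR4 had 1 and 4 read pairs. In all, 7 of the 17 genes had a median of 1 TPM or more. All 15 NF-kappaB factors and inhibitors were tested, with medians of 3.97 to 107 TPM and 0 DEGs in the 3 comparisons. RELA, the activating subunit, was at 64.3 TPM and NFKBIA, the inhibitor induced by NF-kappaB itself, at 40.0. The median log2 fold change of these 15 genes was -0.0095 with EMX1-FL and 0.21 with EMX1-X1 against the vector control. Both edgeR and DESeq2 gave 2 of the 15 at an unadjusted p below 0.05 in EMX1-X1 against vector control (8.11% and 9.21% of all genes), 1 in EMX1-FL against EMX1-X1 and 0 in EMX1-FL against vector control.

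**Figure D4:**
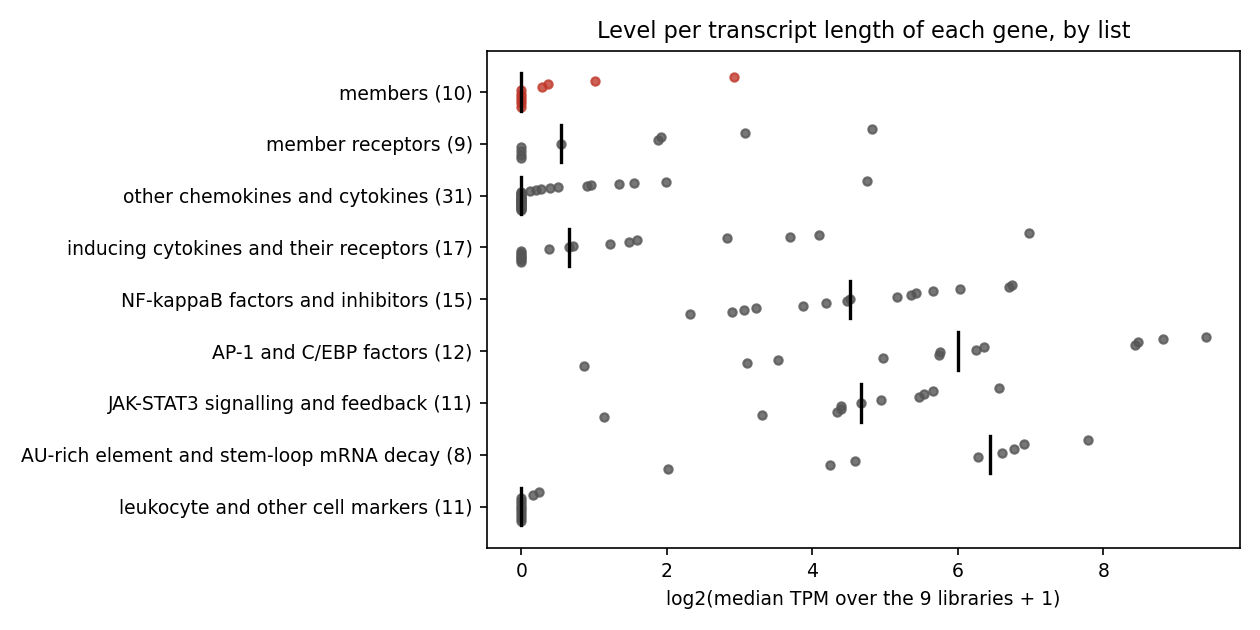
Level of each gene as log2(median TPM over the 9 libraries + 1), by gene list with the number of genes in parentheses, with a black bar at the median of each list. The 10 members lie at or near 0 apart from LIF (6.59 TPM) and CCL2 (1.02 TPM), while all 15 NF-kappaB factors and inhibitors lie at 3.97 TPM or more.

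Of 10 target genes of NF-kappaB that are not cytokines, 7 were tested and 1 was a DEG. That was in EMX1-FL against EMX1-X1, where 1.42% of all genes were DEGs. At an unadjusted p below 0.05, edgeR and DESeq2 each gave 1 of the 7 in EMX1-FL against vector control (all genes: 5.8% and 6.74%). Each gave 1 in EMX1-FL against EMX1-X1 (7.63% and 9.12%). In EMX1-X1 against vector control edgeR gave 0 and DESeq2 1 (8.11% and 9.21%). The median log2 fold change of the 7 was 0.021 with EMX1-FL and -0.076 with EMX1-X1 against the vector control. BIRC3, an inhibitor of apoptosis, was the DEG, higher with EMX1-FL than with EMX1-X1 by a log2 fold change of 1.08 (unadjusted p of 0.00358, adjusted p = 0.611). Its levels were 42.6, 69.0 and 59.1 CPM in the EMX1-FL libraries, 37.5, 23.9 and 19.4 in the EMX1-X1 libraries and 34.2, 37.4 and 20.5 in the vector control libraries. BIRC3 was thus above all others in the 3 EMX1-FL libraries, as was CCL2. EMX1-FL did not overlap the vector control, in either direction, for 10.5% of all genes, and did not overlap EMX1-X1 for 8.39%. The share of genes with EMX1-FL above both other groups was not computed. BIRC3 is named because it passed the DEG threshold, and a link between BIRC3 and CCL2 was not tested. Within each group the cluster B libraries were the low ones for BIRC3. With the cluster as a covariate the log2 fold change was 0.86 (unadjusted p of 1.04e-05, adjusted p = 0.165), under the threshold for DEGs. It was also under it without EMX1-FL replicate 2 (0.91) or EMX1-X1 replicate 3 (0.89). The log2 difference was 0.77 within cluster A and 0.98 within cluster B. The target PTGS2 (cyclooxygenase), at a median of 12.9 TPM, was not a DEG.

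All 12 AP-1 and C/EBP factors were tested, and 2 were DEGs, each in 1 comparison. These were 1 in EMX1-FL and 1 in EMX1-X1 against vector control, beside 2.42% and 2.5% of all genes. At an unadjusted p below 0.05, edgeR and DESeq2 each gave 2 of the 12 in EMX1-FL against vector control (all genes: 5.8% and 6.74%). Each gave 4 in EMX1-X1 against vector control (8.11% and 9.21%) and 2 in EMX1-FL against EMX1-X1 (7.63% and 9.12%). The median log2 fold change of the list was -0.31 with EMX1-FL and 0.18 with EMX1-X1 against the vector control. CEBPD, a C/EBP factor of the acute-phase response, was at 14.5, 12.6 and 13.9 CPM in the vector control, 52.2, 17.6 and 19.0 with EMX1-FL and 15.1, 35.9 and 29.7 with EMX1-X1. It was a DEG with EMX1-FL (log2 fold change 1.12, unadjusted p of 0.0188, adjusted p = 0.679). The call was lost without EMX1-FL replicate 1 (0.42) and without vector control replicate 2 (1.04, unadjusted p of 0.0547). With the cluster as a covariate the log2 fold change was 0.92 (unadjusted p of 0.00156, adjusted p = 0.0717), under the threshold for DEGs. JUNB, an AP-1 subunit, was at 26.1, 21.5 and 26.8 CPM in the vector control, 65.3, 20.8 and 25.9 with EMX1-FL and 24.7, 62.3 and 64.5 with EMX1-X1. It was a DEG with EMX1-X1 (log2 fold change 1.03, unadjusted p of 0.0341, adjusted p = 0.583), though the groups overlapped. This call was lost without any 1 of the vector control libraries (0.91 to 1.07) or of EMX1-X1 2 and 3 (0.85 and 0.81), with the cluster as a covariate (0.52) and with limma on either TPM scale (0.995 and 1.01), and it held under 11 of 20 alternatives. The high libraries of both genes were EMX1-FL 1 and EMX1-X1 2 and 3, all in cluster B and all with the most EMX1, whose part in this was not tested.

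All 11 genes of JAK-STAT3 signalling and its feedback were tested. Their median log2 fold change was 0.17 with EMX1-FL and -0.0052 with EMX1-X1 against the vector control. At an unadjusted p below 0.05, edgeR and DESeq2 each gave 1 of the 11 in EMX1-FL against vector control (all genes: 5.8% and 6.74%). Each gave 3 in EMX1-X1 against vector control (8.11% and 9.21%). In EMX1-FL against EMX1-X1 edgeR gave 1 and DESeq2 2 (7.63% and 9.12%). STAT3 was at a median of 49.7 TPM and JAK1 at 29.8. SOCS3, the feedback inhibitor that STAT3 induces, was the only DEG, in EMX1-X1 against vector control, where 2.5% of all genes were DEGs. It was at 14.54, 14.03 and 14.33 CPM in the vector control, 28.1, 11.1 and 14.2 with EMX1-FL and 17.2, 37.9 and 33.4 with EMX1-X1. The log2 fold change was 1.04 (unadjusted p of 0.0117, adjusted p = 0.536). EMX1-FL replicate 1, the library with the most LIF, was also the EMX1-FL library with the most SOCS3, JUNB and CEBPD. EMX1-X1 2 and 3 were above EMX1-X1 1 in all 4 genes. These are the cluster B libraries of the overexpression groups, and a link of LIF with SOCS3, JUNB or CEBPD was not tested. SOCS3 with EMX1-X1 was above the control by a log2 difference of 0.26 within cluster A and by 1.31 within cluster B, and the value was 0.69 with the cluster as a covariate, under the threshold for DEGs. It was 0.82 without EMX1-X1 replicate 2 and 0.94 without EMX1-X1 replicate 3, which lost the call too. JUNB with EMX1-X1 was 0.06 and 1.24 above the vector control in these clusters, and CEBPD with EMX1-FL 0.44 and 1.91.

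**Figure D5:**
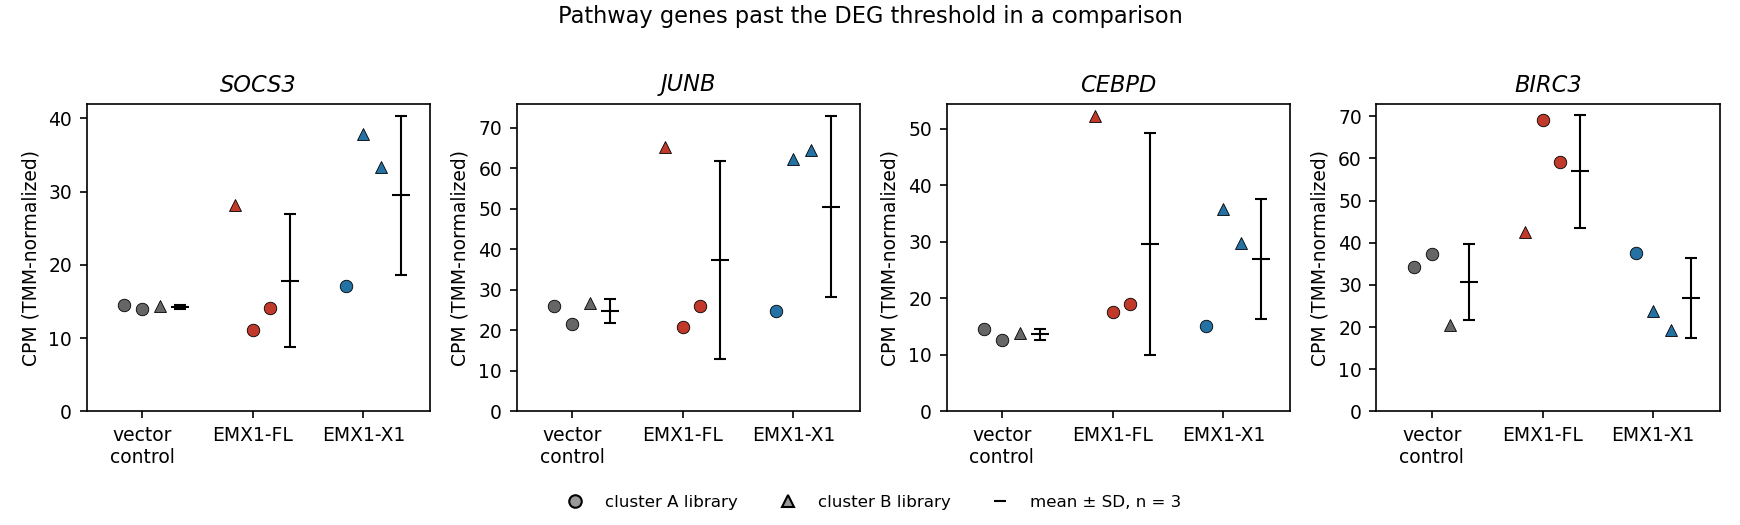
Levels in CPM of the pathway genes past the DEG threshold in a comparison (SOCS3, JUNB, CEBPD and BIRC3) in each library, by group, with circles for cluster A, triangles for cluster B and the mean ± SD of 3 libraries. For SOCS3, JUNB and CEBPD the cluster B libraries of both overexpression groups are the high ones, up to 37.9, 65.3 and 52.2 CPM, while the vector control libraries of both clusters are alike.

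The mRNA decay factors were expressed and did not pass the threshold. All 8 were tested and 0 were DEGs. At an unadjusted p below 0.05 edgeR and DESeq2 gave 0 of the 8 against the vector control with either form and 2 in EMX1-FL against EMX1-X1 (7.63% and 9.12% of all genes), and the median log2 fold change was -0.078 with EMX1-FL and 0.066 with EMX1-X1. ZFP36 (tristetraprolin), which binds AU-rich elements, was at a median of 23.1 TPM, KHSRP at 222 and ZC3H12A (regnase-1), which cleaves stem-loops of cytokine mRNAs such as IL6, at 3.05.

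Markers of other cell types were near 0. Of 11 leukocyte, endothelial and red cell markers none was tested, CD68 and CDH5 had no read pair in any library, and PTPRC (CD45) had 9 over the 9 libraries. Their summed level was 0.299 to 0.392 CPM in the vector control, 0.0421 to 1.77 with EMX1-FL and 0.457 to 0.664 with EMX1-X1. The highest of these sums was that of EMX1-FL replicate 1, which held 22 read pairs of the hemoglobin gene HBB, a gene at 0 in the other 8 libraries. Among hepatocyte and hepatoma markers AFP and TTR had no read pair, HNF4A had 2, and GPC3 and ALB were at a median of 18.4 and 1.04 TPM. ALB was a DEG against the vector control in EMX1-FL cells (log2 fold change 1.46, unadjusted p of 0.00722, adjusted p = 0.467). It was also one in EMX1-X1 cells (1.11, unadjusted p of 0.0314, adjusted p = 0.576), beside 2.42% and 2.5% of all genes. With EMX1-X1, ALB lost the call without vector control 1 (1.15) or 2 (0.90) or EMX1-X1 2 (0.96) or 3 (0.98). GPC3, the other of the 2 hepatocyte markers tested, was no DEG and had the opposite sign to ALB in EMX1-X1 against vector control. Within clusters A and B the log2 differences of ALB were 1.76 and 0.36 with EMX1-FL and 0.57 and 0.99 with EMX1-X1. The mesenchymal genes VIM and FN1 were at a median of 861 and 52.2 TPM and ZEB1 at 0.589. ZEB1 was a DEG in EMX1-FL against vector control (log2 fold change 1.22, unadjusted p of 0.0413, adjusted p = 0.837), as were 2.42% of all genes. This call held under 10 of 20 alternatives. It was lost without vector control 2 (1.11) or 3 (0.93), EMX1-FL 2 (0.91) or 3 (0.97) or EMX1-X1 2 or 3 (1.22 for each). At an unadjusted p below 0.05 edgeR and DESeq2 each gave 3 of the 5 mesenchymal genes in this comparison (5.8% and 6.74% of all genes). They gave 2 and 1 in EMX1-X1 against vector control (8.11% and 9.21%) and 0 in EMX1-FL against EMX1-X1. The log2 difference of ZEB1 was 1.37 within cluster A and 0.27 within cluster B.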

How the data were processed

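The 9 RNA-seq libraries (SNU-398) were grouped by their labels into vector control, EMX1-FL and EMX1-X1, 3 each. The authors trimmed reads with fastp, aligned them with STAR to hg38 and deposited, for each gene name, raw read-pair counts together with log2(TPM + 1) values. The header of the count table names featureCounts 2.0.1 with Ensembl release 99, the submitters' processing notes featureCounts 2.0.6 and the paper's methods RSEM. No strand option is given in that header. Recomputing TPM from the counts and the deposited gene lengths gave the deposited log2 values within 5e-06.

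Of 60642 gene names, 18574 passed filterByExpr of edgeR 4.0.16 (R 4.3.3), whose quasi-likelihood F test was run with TMM factors on all 9 libraries with a term for the group alone, and Benjamini-Hochberg adjustment per comparison. Single members were also tested by a two-sided exact permutation test of log2 CPM. Library totals of 21562703 to 25197970 set the precision, and limits on counts of 0 cover counting error only. limma 3.58.1 on TPM (log2 with 1 or 0.1 added), DESeq2 1.42.0, other scalings, filters, thresholds and sets of libraries, a replicate block and the cluster of libraries were the alternatives. Promoters (RefSeq, GRCh38.p14) and plots used Python 3.11.15, pandas 2.3.3 and matplotlib 3.10.9.

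All 10 members, the receptors and list genes past the DEG threshold are named by rule, and further list genes are given as examples of levels. The members, lists and motifs were chosen with earlier results of these data known.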

Additional observations from a re-analysis of the deposited data

How the results depend on the processing

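Among the members, 1 was a DEG in EMX1-FL against vector control, 0 in EMX1-X1 against vector control and 1 in EMX1-FL against EMX1-X1. The first count was 0 with limma on log2(TPM + 1), with at least 10 counts in every library (a filter that CCL2 does not pass) and with the adjusted threshold, and it ranged from 0 to 1 with each library left out, being 0 without vector control 3, EMX1-FL 1 or EMX1-FL 2. The second ranged from 0 to 1, with 1 without vector control 3. The third was 0 with at least 10 counts in every library and with the adjusted threshold, and 1 with each library left out. With the replicate number as a block these counts stayed at 1, 0 and 1. Same-numbered libraries did not deviate together in every pair (correlations of residuals between -0.52 and 0.29), so the numbers were not taken as a pairing. With the block CCL2 gave log2 fold changes of 1.44, -1.07 and 2.51, and of the list genes past the threshold JUNB in EMX1-X1 against vector control (1.07, unadjusted p of 0.0537) and ZEB1 in EMX1-FL against vector control (1.14, unadjusted p of 0.101) lost it. LIF in EMX1-FL against EMX1-X1 changed sign with the cluster as a covariate (0.022), without EMX1-FL 2 (0.013), without EMX1-FL 3 (0.13) and without EMX1-X1 2 (0.049), whereas it was -0.61 without EMX1-FL 1. The cause of these changes was not tested. CCL2 and LIF kept their direction in all other comparisons and alternatives, and so did the list genes past the threshold. When every gene with at least 1 read pair was tested by edgeR, some list genes passed the adjusted threshold, which they did not pass in the main fit. These were BIRC3 in EMX1-FL against EMX1-X1 (adjusted p = 0.0064) and CEBPD in EMX1-FL against vector control (0.0041). JUNB (0.0089) and SOCS3 (0.0139) passed it in EMX1-X1 against vector control. ALB, ZEB1, CCL2 and LIF did not pass it. The share of all genes past it at this setting was not computed. Log2 fold changes hardly moved from the main fit, from 1.08 to 1.07 for BIRC3 and from 1.12 to 1.11 for CEBPD. Unadjusted p-values of edgeR fell for EMX1 as well, from 6.5e-08 to 4.2e-61 in EMX1-FL against vector control. The sum of CXCL1, CXCL2 and CXCL3 was not tested, since it did not pass the filter.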
